A study of Mus musculus with 4 samples.

Results

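The genes described here are Meis1, Meis2, Meis3, Pbx2, Pbx3 and Pbx4, the Hox cofactor genes of the Meis and Pbx families. They were found by gene symbol in the platform annotation, through probe sets that carry a single symbol. All 6 genes had at least 1 such probe set, with 15 probe sets in all, and each gene was represented by the probe set with the highest mean signal over the 4 arrays. All 6 passed the filter on dim signals, among 12740 genes tested, and 14 of the 15 probe sets did.

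Expression was measured on mouse Affymetrix arrays in GFP-sorted cells of the neural tube at E10.5, dissected between the levels of the limbs. Atoh1-GFP cells came from the Atoh1BAC-GFP transgenic line, in which an Atoh1 bacterial artificial chromosome places GFP in the lineage of dorsal interneuron 1 (dI1). The dNeurog1-GFP cells came from the dNeurog1-GFP line, in which a Neurog1 enhancer places GFP in the dorsal part of the tube, marking dorsal interneuron 2 (dI2). Both lines were on a mixed B6SJLF1 and ICR background, and neither group carried a mutation or a treatment according to the labels. Each group had 2 arrays, described as biological replicates. The labels do not state how many embryos were pooled for a sample, nor which sorted fraction was hybridised, here taken to be the GFP-positive one.

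Meis and Pbx proteins are homeodomain transcription factors of the TALE class, so called for an extra loop of amino acids in the homeodomain. Pbx proteins bind DNA together with Hox proteins and sharpen their choice of sites, and Meis proteins bind Pbx, hold it in the nucleus and can join the complex on DNA. In the hindbrain and spinal cord these complexes are known for reading out Hox codes along the body axis.

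The RefSeq promoter table (build GRCm38.p6, from 250 bases before to 50 bases after a start site) held a window for 5 of the 6 genes, all except Pbx3. The Meis2 window, chr2:116064570-116064869 on the minus strand, is shown because Meis2 was the member whose arrays separated by population in the values below.

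Meis2 promoter: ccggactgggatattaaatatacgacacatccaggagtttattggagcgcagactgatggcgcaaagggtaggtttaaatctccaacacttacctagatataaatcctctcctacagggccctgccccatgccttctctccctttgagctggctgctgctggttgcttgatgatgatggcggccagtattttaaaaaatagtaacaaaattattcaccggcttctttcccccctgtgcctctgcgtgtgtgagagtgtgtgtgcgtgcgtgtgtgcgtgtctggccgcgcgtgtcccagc

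It has no capitals, which are used for the Meis and Pbx motifs only. None of the searched motifs matched the Meis2 window on either strand. The motifs were TGACAG, the core bound by Meis proteins, TGATNNAT, a site form of Pbx with Hox, and CANNTG, the E-box bound by basic helix-loop-helix factors such as Atoh1 and Neurog1. The Meis and Pbx motifs were also without a match in the windows of Meis1, Meis3, Pbx2 and Pbx4, and an E-box occurred once each in those of Meis1 and Pbx2. Over all 32851 windows of the table, TGACAG occurred in 19.2%, TGATNNAT in 8.8% and CANNTG in 72.3%. A missing match says only that these letters are not in this window.

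The comparison asked whether the Hox cofactors distinguish the Atoh1 lineage from its dI2 neighbours. The marker genes of the populations followed the labels: all 5 dI1 markers were higher in Atoh1-GFP and all 5 dI2 markers higher in dNeurog1-GFP cells on every array. The deposited trimmed mean was 250 on both replicate 1 arrays and 500 on both replicate 2 arrays. All arrays were therefore set to a trimmed mean of 500, and signals are given on that scale. After scaling, replicate 1 arrays still had higher medians, 138.1 (Atoh1-GFP) and 114.8 (dNeurog1-GFP), than replicate 2 arrays, 76.0 and 75.4. Dim signals thus tended to read higher on replicate 1 arrays. A positive difference means a higher level in Atoh1-GFP cells, and differences are in units of log2(signal + 32), which shrinks those of dim genes. Since the authors' scaling differed by replicate number, the differences of the 6 genes are also given within each number. Calls are also given with the number as a block in the model. The adjusted p come from limma with Benjamini-Hochberg adjustment over all 12740 genes, with 0.05 as the threshold. At that threshold 0.22% of all genes were called without the block and 6.51% with it. Of the 6 Meis and Pbx genes, 0 were called in either model. At an unadjusted p under 0.05, 1 of the 6, Meis2, passed in each model, against 8.59% of all genes without the block and 22.5% with it.

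Meis2, which is induced by retinoic acid in other settings, had signals of 12238 and 9970 on the Atoh1-GFP arrays against 7559 and 7883 on the dNeurog1-GFP arrays. Both Atoh1-GFP arrays lay above both dNeurog1-GFP arrays. The log2 difference was 0.52 (standard error 0.19, 95% interval 0.08 to 0.95), a 1.43-fold higher level, made up of 0.69 within replicate 1 and 0.34 within replicate 2. It did not pass the threshold (adjusted p = 0.47, or 0.089 with the block). In size, this difference exceeded that of 82.7% of the genes tested. In sorted bulk RNA, more cells with the transcript and more transcript per cell cannot be told apart.

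**Figure D1:**
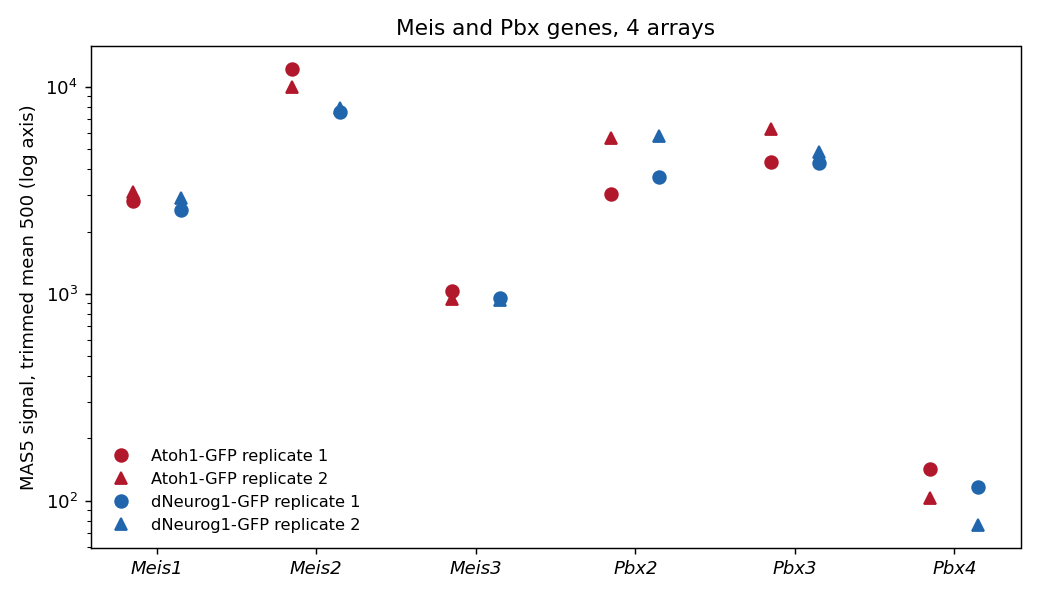
Signal of the representative probe set of each gene on each array, on a log axis; circles are replicate 1 and triangles replicate 2. Only for Meis2 do both Atoh1-GFP arrays, at 12238 and 9970, lie above both dNeurog1-GFP arrays, at 7559 and 7883; heights are not comparable between genes.

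Meis2 was the only one of the 6 genes whose groups did not overlap, whereas 34.7% of all genes had groups without overlap. Separation of the groups was thus not more frequent among these genes than over the array. Meis2 was read by 4 probe sets, and all 4 read higher in Atoh1-GFP cells in replicate 1 and in replicate 2. The second, 1417129_a_at, had 5426 and 4828 against 3858 and 3371, a difference of 0.50 that was nearly equal within replicate 1 (0.49) and replicate 2 (0.51). The third, 1440091_at, had 1299 and 578 against 475 and 494, so its difference of 0.80 lay mainly within replicate 1 (1.39, against 0.21 within replicate 2). The fourth, 1447861_x_at, had 2548 and 1357 against 1960 and 1312, a difference of 0.21 with overlapping groups. In Affymetrix naming, the s and x suffixes of the representative and the fourth probe set mark probes that may also read transcripts of other genes, and 1417129_a_at carries the suffix for several transcripts of 1 gene.

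When all 27022 kept probe sets were fitted and adjusted together, 0 of the 14 Meis and Pbx probe sets passed without the block, where 0.0037% of all probe sets did, and 2, both of Meis2, had an unadjusted p under 0.05, against 5.98% of all. With the block 3 of the 14 passed, all higher in Atoh1-GFP cells, against 4.02% of all probe sets called in that direction. They were the Meis2 probe sets 1457632_s_at (limma adjusted p = 0.049, standard error 0.14) and 1417129_a_at (0.038, standard error 0.13), and 1443260_at of Meis1 (0.027, standard error 0.14). Probe sets of a gene share its RNA and are not independent of each other. The Meis2 call thus depended on the block and on fitting probe sets rather than genes.

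Meis1, a cofactor best known from blood stem cells and leukaemia, had signals of 2796 and 3112 on the Atoh1-GFP arrays against 2551 and 2897 on the dNeurog1-GFP arrays by its representative probe set, 1450992_a_at. The groups overlapped, with the higher dNeurog1-GFP array above the lower Atoh1-GFP array. The log2 difference was 0.12 (standard error 0.21, 95% interval -0.39 to 0.62; adjusted p = 1, or 0.59 with the block), with 0.13 and 0.10 within replicates 1 and 2. The probe sets of Meis1 disagreed in size. By 1443260_at the signals were 1362 and 1946 against 842 and 1337, a difference of 0.60 with 0.67 and 0.53 within replicates 1 and 2. Both numbers thus went the same way, and the groups stood apart narrowly. The third, 1459423_at, had 116 and 26.1 against 81.6 and 40.9, and its difference turned from 0.38 within replicate 1 to -0.33 within replicate 2. Its mean signal of 66.1 was just above the filter at 63.5.

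Meis3, which is known from hindbrain patterning, had the smallest difference of the Meis genes. Its only probe set read 1032 and 942 on the Atoh1-GFP arrays against 953 and 932 on the dNeurog1-GFP arrays, with overlapping groups. The log2 difference was 0.06 (standard error 0.23, 95% interval -0.47 to 0.60), and 84.9% of the genes tested had a larger one. Within replicates 1 and 2 the Meis3 difference was 0.11 and 0.01 (limma adjusted p = 0.82 with the block). The interval still allows a difference of about the size seen for Meis2.

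**Figure D2:**
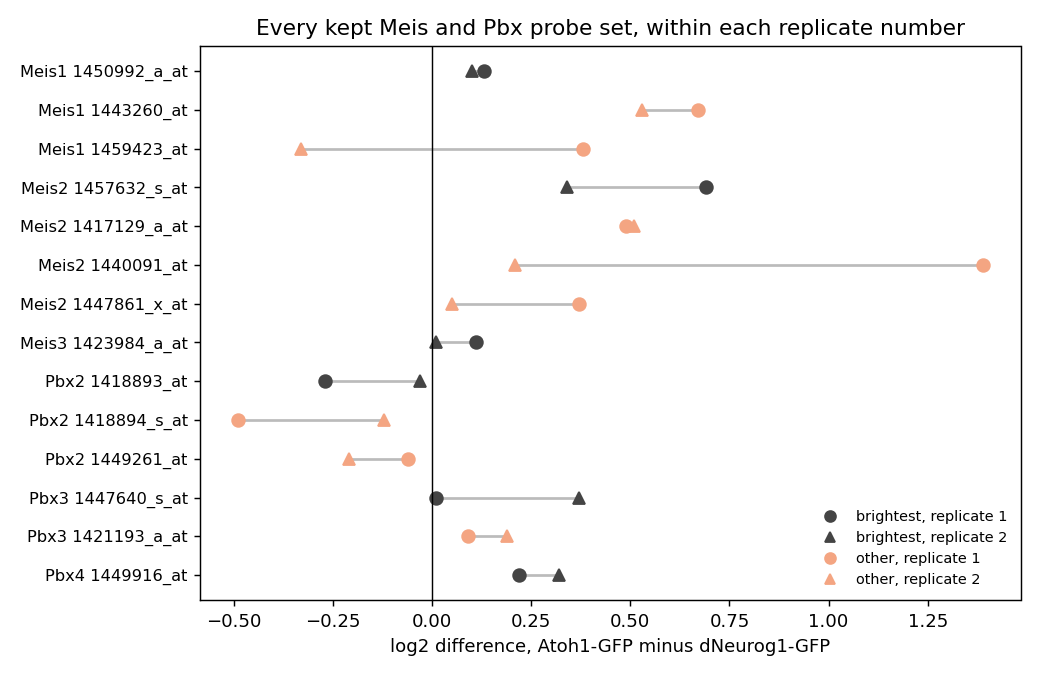
Log2 difference of every kept Meis and Pbx probe set within replicate 1 (circles) and within replicate 2 (triangles), the representative probe set of each gene in dark grey. All 4 Meis2 probe sets lie to the right of 0 and all 3 Pbx2 probe sets to the left of it within both replicate numbers.

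Among the Pbx genes, Pbx2, a broadly expressed family member, was the only one with lower values in Atoh1-GFP cells. Its representative probe set, 1418893_at, had 3021 and 5648 on the Atoh1-GFP arrays against 3651 and 5773 on the dNeurog1-GFP arrays. Arrays of replicate 2 were higher than the replicate 1 arrays in both populations, by 0.90 and 0.66 log2 units, and this spread exceeded the difference between the populations. That difference came to -0.15 (standard error 0.35, 95% interval -0.99 to 0.69), and -0.27 and -0.03 within replicates 1 and 2, and did not pass (adjusted p = 1, or 0.52 with the block). It turned to 0.30 without the Atoh1-GFP replicate 1 array and to 0.18 without the dNeurog1-GFP replicate 2 array. The other Pbx2 probe sets did not share the higher signals on the replicate 2 arrays. By 1418894_s_at, which also carries the s suffix, the signals were 1266 and 1198 against 1795 and 1306, a difference of -0.31 with groups apart. By 1449261_at they were 1172 and 855 against 1219 and 995, a difference of -0.13 with overlapping groups.

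Pbx3 had 4328 and 6251 on the Atoh1-GFP arrays against 4298 and 4843 on the dNeurog1-GFP arrays by its representative probe set, 1447640_s_at. This probe set carries the s suffix, so its probes may also read transcripts of other genes. Within replicate 1 the populations were nearly level (0.01) and the difference lay within replicate 2 (0.37), giving 0.19 in all (standard error 0.24, 95% interval -0.38 to 0.76; adjusted p = 1, or 0.46 with the block). Its other probe set, 1421193_a_at, had 1885 and 1782 against 1774 and 1559, a difference of 0.14 with 0.09 and 0.19 within replicates 1 and 2. Both probe sets thus placed Pbx3 slightly higher in Atoh1-GFP cells, by less than 1 standard error. Without the Atoh1-GFP replicate 2 array the difference of the representative probe set turned to -0.08.

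Pbx4, which is known mainly from testis, was dim, with signals of 142 and 103 on the Atoh1-GFP arrays against 117 and 76.5 on the dNeurog1-GFP arrays. Its groups overlapped. The log2 difference was 0.27 (standard error 0.44, 95% interval -0.77 to 1.31), the widest interval of the 6 genes, with 0.22 and 0.32 within replicates 1 and 2. Its other probe set, 1454912_at, had a mean signal of 31.7 and fell below the filter, with a difference of -0.42 within replicate 1 and 0.30 within replicate 2.

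**Figure D3:**
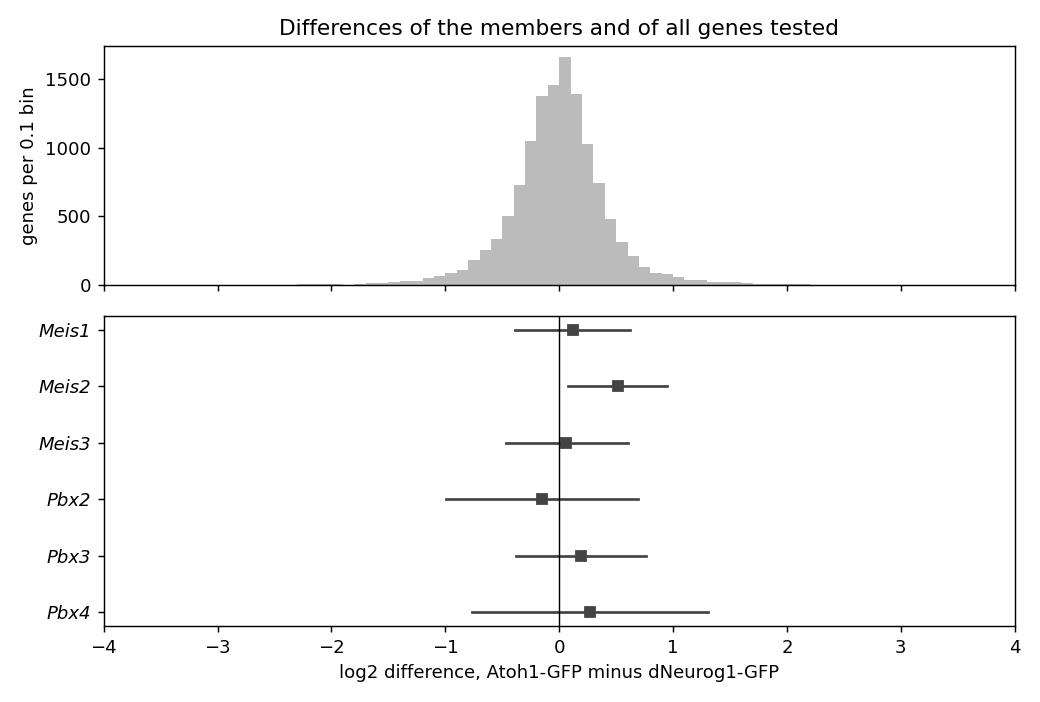
Upper panel, number of genes per bin of 0.1 in the log2 difference Atoh1-GFP minus dNeurog1-GFP over the 12740 genes tested; lower panel, the differences of the 6 genes with their 95% intervals from the model without the block. Only the interval of Meis2, from 0.08 to 0.95, lies off 0, before adjustment for the number of genes.

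The 6 genes had a median difference of 0.15 (0.12 for replicate 1 and 0.21 for replicate 2), against 0.01 over all genes tested. Within each of the replicate numbers, 5 of the 6 genes read higher in Atoh1-GFP cells, as did 33.3% of all genes. For Meis3 and Pbx3, 1 of these differences was only 0.01. Of the 14 probe sets, 10 were higher within both numbers (35.8% of all probe sets were) and 3, all of Pbx2, lower within both. The groups of 6 of the 14 probe sets did not overlap, against 30.7% of all probe sets.

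Genes with a profile like that of Meis2 were sought by the Euclidean distance of log2 values over the 4 arrays, each gene centred on its mean. Meis2 was chosen for this as the member with the largest difference and the brightest probe set. The closest were Psen2 (distance 0.020), the presenilin 2 subunit of gamma-secretase, Abhd3 (0.036) and Hip1r (0.043), with differences of 0.52, 0.50 and 0.51. A further 104 genes lay within a distance of 0.2, so the likeness over 4 arrays is not specific.

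Markers of neuronal maturity also differed between the populations. All 6 neuron markers (Tubb3, Dcx, Stmn2, Elavl3, Elavl4 and Map2) were higher in Atoh1-GFP cells without overlap. Over all genes, 34.7% had groups without overlap in either direction. Stmn2 stood apart narrowly, with 5169 against 5000 in replicate 2. With the block 4 of the 6 were called, against 2.78% of all genes called higher, and without it 0. Summed over the list, the neuron markers read 45978 and 49917 on the Atoh1-GFP arrays against 23545 and 32875 on the dNeurog1-GFP arrays. Their median difference was 0.74 (0.94 within replicate 1 and 0.61 within replicate 2). Of 7 progenitor markers 6 read lower in Atoh1-GFP cells. Sox2 did so by little (-0.11) with overlapping groups, and Hes5 was nearly level within replicate 2 (-0.08). The model without the block called 0 of the 7. The blocked model called 4 as lower, where it called 3.73% of all genes in that direction. Summed signals of the progenitor list were 24091 and 20196 against 42457 and 29116. The Meis2 difference had the direction of the neuron markers, and their part in it was not tested.

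Markers of cells outside the neural tube were read as well. Those measured had passed the filter at a mean signal of 63.5, so none could be at 0. No detection calls were used, and a signal alone does not show that such cells were present. Pecam1 (mean 68.0) and Nppa (70.4) lay near the filter, whereas Hbb-y (13455) lay far above it. The summed signals of 3 measured blood markers were 30365 and 31526 on the Atoh1-GFP arrays against 7713 and 22815 on the dNeurog1-GFP arrays. Those of 6 heart muscle markers were 1766 and 3628 against 452 and 2002, and those of 6 endothelial markers 1725 and 719 against 657 and 560. The 8 mesenchyme markers summed to 6501 and 4449 against 2959 and 7207, and the 2 measured of 4 neural crest markers to 519 and 294 against 267 and 475. Meis and Pbx genes are known to be active in several of these tissues, and the part of such cells in the values above was not tested. The 9 markers of the ventral tube and motor neurons summed to 1165 and 800 against 1313 and 3870. Of these, 7 read lower and 2 higher in Atoh1-GFP cells. The groups of 6 did not overlap, against 34.7% of all genes. With the block 2 were called lower, against 3.73% of all genes, and without it 0. Their median difference was 0.01 in replicate 1 against -2.04 in replicate 2. Within replicate 1 they ranged from -2.13 (Lhx4) and -1.56 (Olig2) to 1.36 (Foxa2). The part of ventral cells in the values above was not tested.

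Among the other TALE class genes and Pbx partners, 11 passed the filter and Irx4 was below it. The median difference of the 11 was -0.19. Without the block 1 of the 11, Irx3, was called, lower in Atoh1-GFP cells, against 0.0942% of all genes in that direction, and with the block 3 were called, all lower, against 3.73%. These were Iroquois genes, which pattern the neural tube: Irx3 with 572 and 647 against 4203 and 3783 (-2.65, limma adjusted p = 0.014), Irx5 (-1.99, adjusted p = 0.096 and, with the block, 0.0034) and Irx2 (-0.87, adjusted p = 0.47 and, with the block, 0.033). With signals as deposited and no block, 0 of the 11 were called. Irx1 (-0.19), Irx6 (-0.66) and Mkx (0.19) did not pass in either model.

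The closest relatives of Meis are the Prep genes, which also bind Pbx. Pknox1 (Prep1) had 1164 and 817 on the Atoh1-GFP arrays against 898 and 802 on the dNeurog1-GFP arrays, a difference of 0.19 with overlapping groups. Pknox2 (Prep2) had 690 and 496 against 938 and 987, so that both Atoh1-GFP arrays lay below both dNeurog1-GFP arrays. Its difference of -0.69 (standard error 0.26) was -0.43 within replicate 1 and -0.95 within replicate 2, opposite in sign to Meis2, and did not pass over genes (adjusted p = 0.48, or 0.082 with the block). Over probe sets with the block its limma adjusted p was 0.040. The repressors Tgif1 and Tgif2, which bind a Meis-like core, had differences of -0.05 and 0.09, and Pbxip1, which binds Pbx proteins and blocks their binding to DNA, had -0.12.

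**Figure D4:**
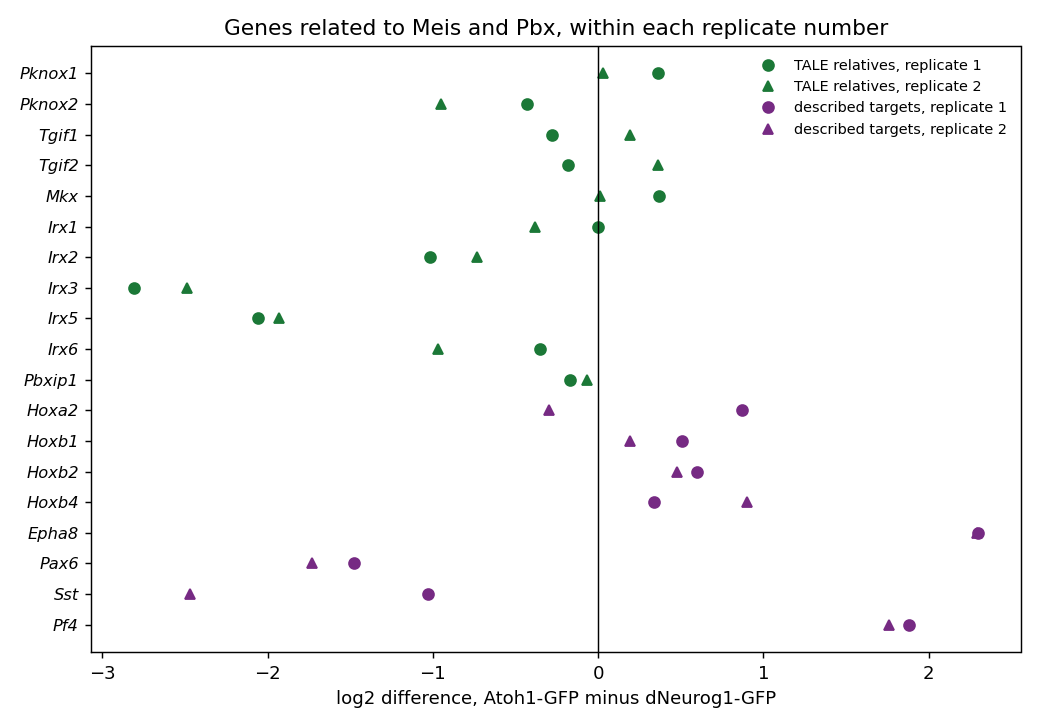
Log2 differences within replicate 1 (circles) and replicate 2 (triangles) for the other TALE class genes and Pbx partners (green) and for genes with a described Meis or Pbx site (purple). Irx3 and Irx5 lie farthest to the left among the relatives, and Epha8 and Pf4 farthest to the right among the targets.

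Hox genes encode the partners of these cofactors. Of 27 Hox genes measured, 18 read higher and 9 lower in Atoh1-GFP cells, with a median of 0.28. None was called by limma without the block, against 0.22% of all genes, and 4 had an unadjusted p under 0.05, against 8.59%. With the block 6 were called higher and 1 lower, against 2.78% and 3.73% of all genes. Called with the block were Hoxa5 (0.92), Hoxb5 (0.79), Hoxa3 (0.73), Hoxd3 (0.65), Hoxa9 (0.63), Hoxb2 (0.54) and, lower, Hoxd9 (-1.20). Of these, Hoxa9 and Hoxd9 had overlapping groups, with Hoxd9 at 172 and 682 against 327 and 2116. All 7 calls rest on pairing the arrays by replicate number. Paralogue groups 1 to 4 had a median of 0.52 over 10 genes, all higher. Groups 9 to 13 had 0.19 within replicate 1 and -0.93 within replicate 2 over 9 genes, so they differed between the replicate numbers.

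Of 8 genes with a Meis or Pbx site described in some tissue, all were measured, and with the block 3 were called higher and 2 lower in Atoh1-GFP cells, against 2.78% and 3.73% of all genes. Without the block limma called 0 of the 8, against 0.22% of all genes, and 5 had an unadjusted p under 0.05, against 8.59%. Hoxb2 is also counted among the called Hox genes and Pax6 among the called progenitor markers. The list was chosen with earlier results of these data known, so its counts are not independent support. Epha8, an ephrin receptor with a Meis-bound enhancer in the midbrain, had 621 and 373 against 100 and 50.7, a difference of 2.30 (adjusted p = 0.097, or 0.0059 with the block) that was equal within replicates 1 and 2 (2.30 and 2.29). Pf4, a platelet chemokine gene, had 598 and 988 against 139 and 270 (1.82, adjusted p = 0.0064 with the block), and the summed blood markers above were higher on the same arrays, whose part in it was not tested. Hoxb2 had 4524 and 4620 against 2978 and 3302 (0.54, adjusted p = 0.047 with the block). Lower in Atoh1-GFP cells were Pax6, a progenitor factor, with 541 and 565 against 1568 and 1951 (-1.61, adjusted p = 0.0046 with the block), and the neuropeptide gene Sst with 328 and 215 against 703 and 1333 (-1.75, adjusted p = 0.037 with the block). Hoxa2 (0.28), Hoxb1 (0.35) and Hoxb4 (0.62) did not pass in either model. The described targets went both ways, and whether Meis or Pbx proteins regulate them in these cells was not tested.

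The promoter windows of these genes held the motifs in 5 places, shown with their flanks to place them beside the values above. Capitals mark the motif, which lies on the opposite strand in the second Hoxa2 stretch and in that of Pax6.

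Hoxa2 TGACAG, chr6:52164854-52164891, minus strand: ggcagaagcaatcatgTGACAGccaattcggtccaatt
Hoxa2 TGATNNAT, chr6:52164919-52164958, minus strand: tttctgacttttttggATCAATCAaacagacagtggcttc
Hoxb1 TGATNNAT, chr11:96365580-96365619, plus strand: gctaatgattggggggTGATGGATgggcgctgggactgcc
Pax6 TGACAG, chr2:105682288-105682325, plus strand: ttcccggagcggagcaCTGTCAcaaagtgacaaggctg
Sst TGATNNAT, chr16:23890934-23890973, minus strand: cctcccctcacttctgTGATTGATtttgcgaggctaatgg

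The motifs began 44 and 111 bases before the start site in Hoxa2, 162 in Hoxb1, 159 in the second Pax6 window and 113 in Sst. The windows of Hoxb4, Epha8 and Pf4 and the first Pax6 window held neither motif, and the table gave no window for Hoxb2. A match is a description of the letters only.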

How the data were processed

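The authors deposited linear signal intensities computed with MAS5, per the submitters' processing notes, for each of 4 arrays. The version of MAS5 and its scaling target were not given in the sources used here. No detection calls were used. The 64 control probe sets were left out, each array was scaled to a trimmed mean of 500 (2% left out at each end), and probe sets with a mean signal at or above the 40th percentile (63.5) were kept, 27022 of 45037. Of the 45037, 34945 had 1 gene symbol, 932 several and 9160 are unnamed here. The brightest kept probe set stood for a gene.

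Differences on log2(signal + 32) were fitted with limma 3.58.1 (lmFit, and eBayes with trend) in R 4.3.3, either with no block, which left 2 residual degrees of freedom, or blocked by replicate number, which left 1. An exact permutation test of 2 against 2 arrays cannot go below p = 0.33 and was not used. Intervals come from the model without the block. The p-values and intervals also use prior degrees of freedom that eBayes estimated over all genes, 4.9 without the block and 5.1 with it. The scripts were tested on simulated data, where more calls were false than the threshold implies, more so with the block. The number of arrays limits the precision.

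Named were, by rule, all 6 genes with every probe set, all measured relatives and described targets, Hox genes called in either model, and the 3 genes nearest in profile. The members and lists were chosen with earlier results of these data known. A planned split of the Hox genes by a protein motif was not analysed here.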

Additional observations from a re-analysis of the deposited data

How the results depend on the processing

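The labels give both groups replicates 1 and 2 but do not say that a number marks a shared litter or day. The deviations of same-numbered arrays correlated at 0.66 across genes, and the authors' scaling differed by number. With the replicate block, 829 genes were called (354 higher in Atoh1-GFP cells) in place of 28 (16), with signals as deposited and the block 1169 (503). The block gave 3 TALE relatives, 7 Hox genes and 5 described targets, and as deposited 4, 10 and 6, in place of 1, 0 and 0. It called 0 of the 6 Meis and Pbx genes. Adjusted over all kept probe sets with the block, an alternative chosen after seeing the data, 1 was called, Meis2 at 0.52 (adjusted p = 0.049). Over all 16 alternatives the Meis2 difference ranged from 0.37 to 0.66 and its adjusted p from 0.049 to 1.

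Without the block, 13 genes (1 higher in Atoh1-GFP cells) and 0 TALE relatives were called as deposited, 18 (7) on one 75th percentile, 14 (7) with no filter, 18 (9) with the filter at the 60th percentile and 14 (8) with the mean of a gene's kept probe sets. Leaving out 1 array leaves a lone sample assumed to vary like the other group. It gave 153 to 380 genes, 70 to 200 of them higher in Atoh1-GFP cells, 2 TALE relatives, 1 to 4 Hox genes and 2 to 4 described targets. Without Atoh1-GFP replicate 1 the Pbx2 difference turned to 0.30 and that of Meis3 to -0.0010, without dNeurog1-GFP replicate 2 that of Pbx2 to 0.18, and without Atoh1-GFP replicate 2 that of Pbx3 to -0.08; the cause was not tested. Over the leave-one-out fits Pbx2 ranged from -0.60 to 0.30, Pbx3 from -0.08 to 0.45 and Meis3 from -0.0010 to 0.13. Pbx4 had no value with the filter at the 60th percentile. The differences of Meis1, Meis2 and Pbx4 kept their sign under every alternative run. No scaling moved the median of all genes by more than 0.1.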
